A study of Mus musculus with 24 samples.

Results

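The 57 genes described here assemble, cut, cross-link and contract actin filaments, apart from Vim, which codes for an intermediate filament protein. They were followed in parental and dormant lines of 2 mouse tumour models, B16-F1 melanoma and DA1-3b myeloid leukemia. The genes were chosen by name, with earlier results of these data known, and a probe counted for a gene when its RefSeq accession belonged to that gene. The shares of members called are therefore not those of a list drawn blind to the data. This gave 99 probes for the 57 genes, among 22911 gene symbols on the array, and 33 of the 57 genes had several probes. In each comparison a gene was represented by its brightest probe.

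Actin monomers join into filaments that push the membrane forward, carry tension and give a cell its shape and stiffness. Thymosins and profilins bind monomers, the Arp2/3 complex starts branched filaments when WASP and WAVE proteins call it, and formins start unbranched ones. Capping proteins close filament ends, gelsolin and cofilins cut filaments, and fascin, plastin, actinins and filamin tie them together. Myosin II pulls on the filaments once its light chain is phosphorylated, tropomyosins decide where it can bind, and talin, vinculin and zyxin link the pulling filaments to integrins. In melanoma this machinery is known from migration and invasion, and in blood cells from a round, soft and fast-moving cell body.

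Total RNA of cultured cells was labelled with Cy3 and hybridized to 24 one-colour Agilent mouse arrays. B16-M (3 arrays) is the parental GFP-carrying melanoma line, and B16-D (4 arrays) the dormant line recovered from mice long after vaccination with irradiated GM-CSF-producing cells. B16-D-733 (4 arrays), B16-D-735 (3 arrays) and B16-D-739 (3 arrays) are lines derived from B16-D, and the labels do not say which of the numbered brain-derived dormant lines each of them is. M0-p20 (4 arrays) and J365-p20 (3 arrays) were read as the parental leukemia line DA1-3b and the dormant line DA1-3b/D365, from mice vaccinated with irradiated IL-12-producing cells, although their titles do not spell out these names. Every melanoma line, the parental one included, carries GFP, and every line was expanded in vitro after isolation. Each group is 1 line, and nothing in the labels says that its arrays came from separate cultures, so that p-values measure the spread between these RNA samples, which may be technical.

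A level is the log2 signal of a probe after subtracting its array's 75th percentile, so that a gene at 0 shines as brightly as the spot at that rank and a difference of 1 is a doubling. Between 46.0% and 55.8% of spots were well above the background on 23 arrays, against 90.3% on replicate 2 of B16-D, which was left out of all results unless it is named. The lowest share, 46.0%, was that of replicate 0 of B16-D, and the next lowest was 49.5%. The title of replicate 0 lacks the B of the line's name, so its place in B16-D is a reading of the label. The titles of 3 of the 4 arrays of B16-D and 3 of the 4 of B16-D-733 carry a date and no other titles do, so that the date goes partly with the line. Replicates 1 and 3 of B16-D-733 have the same number in their titles and lay on 1 slide. They were the most alike pair of that line (SD of log2 differences 0.341, against 0.436 to 0.811 in the other pairs), and whether they are separate RNA samples is not given. All 7 melanocyte markers were above the background on every melanoma array. In the leukemia lines 6 of 7 haematopoietic and myeloid markers were, with Cd33 on no array. Of the melanocyte markers Tyr, Dct, Sox10 and Mitf were also above the background on every leukemia array. Mitf had a mean level of 0.66 in M0-p20 and 1.83 in J365-p20. Pmel was above it on 2 of 4 M0-p20 and 1 of 3 J365-p20 arrays, and Tyrp1 and Mlana on none. In the melanoma lines 3 of 4 endothelial markers (Cdh5, Kdr and Tek) were at the background on every array used, while Pecam1 was above it in all 5 lines at mean levels from -4.13 to -3.88. Of the 7 haematopoietic and myeloid markers Ptprc, Laptm5 and Cd33 were at the background on every melanoma array used, Spi1, Cd53 and Mpo were above it on 1 or 2 arrays of 1 line each, and Itgam was above it on all of them, at mean levels from 2.01 to 2.39. The summed signal of the smooth muscle and pericyte markers, relative to the 75th percentile, ran from 0.830 to 1.94 in B16-M and from 0.883 to 1.95 in B16-D.

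Most of the genes were expressed in every line. At least 1 probe was above the background for 53 of the 57 genes in B16-M, for 54 in each dormant melanoma line and for 50 in each leukemia line. Cnn1 and Myh10, a smooth muscle calponin and a non-muscle myosin heavy chain, were above the background on none of the 23 arrays. The single probe of Tmsb4x, the most abundant thymosin of many cells, was at the background on all melanoma arrays used and bright in the leukemia lines. In the leukemia lines Cnn3, Fscn1, Myl9, Pfn2 and Vil1 were not above the background on any array.

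Dormant B16-D cells differed from B16-M in a few members and by large amounts. Myl9, the regulatory light chain of non-muscle and smooth muscle myosin, was at least 32.7-fold higher, and Fscn1, which bundles filaments in filopodia and invasive protrusions, was 10.2-fold higher. Tmsb10, a monomer-binding thymosin, rose 1.99-fold and Actr3, the Arp3 subunit, 1.52-fold. Coro1a, a coronin of blood cells, was 4.46-fold lower, a size that includes replicate 0 of B16-D, which was not above the background. Gsn, the filament-severing gelsolin, was 1.97-fold lower. These were 4 members higher and 2 lower of 54 tested, or 11.1%, at an adjusted p under 0.05 (limma, Benjamini-Hochberg), where 3.64% of all 24316 genes tested were called (2.03% higher and 1.61% lower). Myl9, above the background on no B16-M array, entered the test only through the dormant lines. The median change of the 54 members was 0.13 on the log2 scale, against -0.04 over all genes tested, and 37 of the 54 were above 0. In a fit of these 2 lines alone only Myl9 and Fscn1 passed, and Tmsb10, Coro1a, Gsn and Actr3 had adjusted p-values of 0.175, 0.149, 0.322 and 0.420 (limma). In 18 members every B16-D array lay above every B16-M array and in 2 below, which is true of 10.9% and 6.31% of all genes.

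Among the myosin genes, Myl9 was at -5.64, -5.00 and -4.89 in the 3 B16-M arrays, none of them well above the background. It was at 0.21, 0.15 and 0.10 in B16-D. Every B16-D array lay far above the parental ones, and replicate 2, at -0.15, did too. The measured log2 difference was 5.33 (SE 0.31, adjusted p = 6.11e-07, limma), and the bound of 32.7-fold sets the B16-D mean against the dimmest signals that counted as above the background in B16-M. As the filter let Myl9 in only through the dormant lines, this p-value adds no support to the direction. With the normexp background correction the differences of the dimmer called genes were smaller and still past the threshold, 3.16 for Myl9, 2.21 for Fscn1 and -0.92 for Coro1a (adjusted p at most 0.00052, limma). Of the 6 smooth muscle and pericyte markers, Pdgfrb passed the test (adjusted p under 0.05, limma). It was above the background on 3 of 3 B16-D arrays and 0 of 3 B16-M arrays, so it too entered the test only through the dormant lines. Pdgfrb was also called higher than in B16-M in the 3 lines derived from B16-D. Rgs5 was at the background in every melanoma line. Des, Notch3 and Myh11 differed by -1.29 (SE 0.47), -0.44 (SE 0.79) and -0.16 (SE 0.24) without passing the test. Cspg4 did not pass either, with mean levels of -2.30 in B16-M and -2.05 in B16-D. The part of such cells in the Myl9 level was not tested. The partner light chain Myl6 was at 6.89, 7.04 and 7.10 in B16-M and at 6.92, 6.43 and 6.61 in B16-D. Its groups overlapped, and its difference of -0.36 (SE 0.12) had an adjusted p of 0.125 (limma). The heavy chain Myh9 differed by 0.08 (SE 0.16, adjusted p = 0.835, limma).

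Promoters bear on this group because many contractile genes carry a CArG box, the motif bound by serum response factor (SRF), near their start. In the RefSeq promoter table (GRCm38.p6, 250 bases before to 50 after each start) 52 of the 57 genes had an entry, and 5 of these, or 9.62%, held a CArG box, against 1.63% of all 32851 promoters of this length. The motif reads alike on both strands. The 5 genes were Arpc4, Cnn2, Myl9, Vcl and Vil1. The bases from -170 to -41 are shown for Myl9 (chr2:156775294-156775423, + strand) and Vil1 (chr1:74409214-74409343, + strand), which were higher in dormant melanoma lines, for Cnn2 (chr10:79988430-79988559, + strand), which was not, and for Fscn1 (chr5:142960185-142960314, + strand), whose promoter window holds no match. Capitals mark the CArG box.
Myl9: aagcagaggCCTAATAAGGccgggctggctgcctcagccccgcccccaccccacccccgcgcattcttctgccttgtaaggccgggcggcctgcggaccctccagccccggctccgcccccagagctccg
Vil1: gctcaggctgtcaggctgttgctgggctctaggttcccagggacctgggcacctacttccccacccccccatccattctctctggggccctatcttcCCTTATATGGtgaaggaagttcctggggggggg
Cnn2: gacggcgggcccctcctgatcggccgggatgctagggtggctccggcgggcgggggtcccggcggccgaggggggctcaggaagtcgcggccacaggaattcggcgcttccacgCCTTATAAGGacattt
Fscn1: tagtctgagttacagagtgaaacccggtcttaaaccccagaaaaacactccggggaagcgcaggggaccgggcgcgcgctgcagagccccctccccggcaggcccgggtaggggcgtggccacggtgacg
The box starts at base -161 in Myl9, -73 in Vil1 and -56 in Cnn2, counted from the start. These matches are letters in a window and not measured sites. The MCAT element CATTCC, bound by TEAD factors, was found on either strand in 10 of the 52 promoters, or 19.2%, against 14.7% of all promoters. Acta2, Flna, Tpm1 and Vcl were among the 10, and Myl9 and Fscn1 were not. Between the genes with a CArG box the dormancy changes differed widely, from 5.33 for Myl9 to -0.16 (SE 0.29) for Cnn2 and -0.08 (SE 0.22) for Vcl.

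Of the 5 bundling and crosslinking genes, 1 passed the test. Fscn1 was at -3.36, -3.39 and -3.66 in B16-M and at -0.26, 0.04 and -0.15 in B16-D. No array of the lines overlapped, and the difference was 3.35 (SE 0.17, adjusted p = 1.21e-07, limma). Lcp1, the plastin of blood cells, was at 0.18, -0.71 and -0.52 in B16-M and at 0.10, -2.03 and -2.30 in B16-D. Its replicate 0 of B16-D sat among the parental arrays, and the difference of -1.06 (SE 0.55) did not pass (adjusted p = 0.373, limma). Other probes of Lcp1 gave -1.58 and -1.56. Actn4, an actinin of motile cells, was at 5.03, 4.64 and 4.82 in B16-M and at 5.46, 5.17 and 5.13 in B16-D, apart but not past the threshold (0.42, SE 0.14, adjusted p = 0.134, limma). Its relative Actn1 and the filamin Flna differed by 0.15 (SE 0.17) and 0.27 (SE 0.16), while the other probe of Flna gave -0.15.

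**Figure D1:**
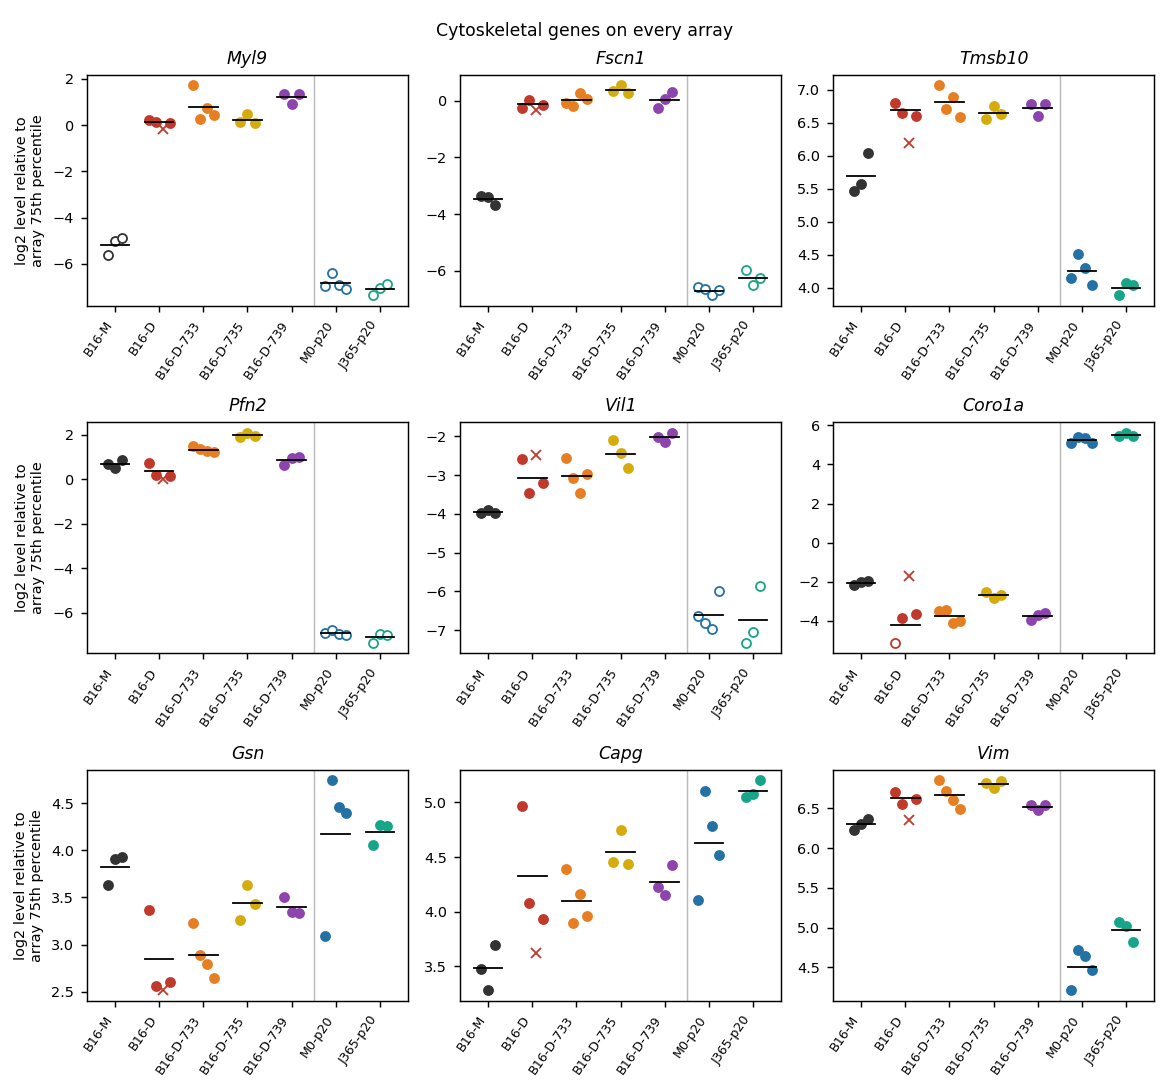
Log2 level relative to the array's 75th percentile (y axis, its own scale in each panel) of 9 members on every array of the 7 lines (x axis). Filled points are above the background, open points are not, the cross is B16-D replicate 2, and black bars are the means without it. Myl9 and Fscn1 were apart from B16-M on every dormant melanoma array, while in the leukemia lines, right of the grey line, they stayed at the background.

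The monomer-binding genes did not move together. Tmsb10 was at 5.46, 5.58 and 6.04 in B16-M and at 6.79, 6.65 and 6.61 in B16-D. Its lines were apart, with a difference of 0.99 (SE 0.16, adjusted p = 0.00353, limma). On undated arrays it was 1.10 (adjusted p = 0.0598, limma). Pfn1, the main profilin, differed by 0.37 (SE 0.17, adjusted p = 0.282, limma) and Pfn2, the profilin best known from neurons, by -0.33 (SE 0.16, adjusted p = 0.337, limma). Tmsb4x could not be tested in melanoma.

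Among the 8 capping and severing genes, Gsn fell. It was at 3.63, 3.90 and 3.93 in B16-M and at 3.36, 2.57 and 2.61 in B16-D. All B16-D arrays were lower, with replicate 0 closest to the parental arrays, and the difference was -0.98 (SE 0.21, adjusted p = 0.021, limma). Its other probe gave -0.94. The call was lost without replicate 1 or 2 of B16-M or replicate 1 or 3 of B16-D, with adjusted p-values from 0.0720 to 0.0928 (limma). With undated arrays only, which leaves replicate 0 as the single B16-D array, assumed to vary like the other lines, it was -0.46 (adjusted p = 0.232, limma). Capg, which caps filament ends without cutting them, was at 3.48, 3.28 and 3.70 in B16-M and at 4.97, 4.08 and 3.93 in B16-D. Every B16-D array used was above the parental ones, but the difference of 0.84 (SE 0.24) had an adjusted p of 0.0736 (limma). Replicate 2, left out, was at 3.62, inside the parental range, and the size rests on replicate 0 of B16-D. Without it the difference was 0.52 (adjusted p = 0.150, limma), without replicate 3 it was 1.04 (adjusted p = 0.0449, limma), and on undated arrays it was 1.48 (adjusted p = 0.0185, limma). Vil1, the villin of intestinal microvilli, differed by 0.86 (SE 0.25, adjusted p = 0.0836, limma), and the cofilins and the capping protein subunits by -0.26 to 0.48.

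The Arp2/3 complex showed 1 called subunit of 8. Actr3 was at 4.45, 4.30 and 4.58 in B16-M and at 5.38, 4.92 and 4.85 in B16-D. The lines were apart, with a difference of 0.60 (SE 0.15, adjusted p = 0.0446, limma), and the other 2 probes of the gene gave 0.39 and 0.18. Leaving out any one of 5 of the 6 arrays moved its adjusted p above the threshold, to between 0.0740 and 0.184 (limma), and only without replicate 3 of B16-D did the call stay. It was also lost with the mean of all 3 probes (0.39, adjusted p = 0.141, limma) and on undated arrays (0.93, adjusted p = 0.0581, limma). Arpc4 was at 3.01, 2.80 and 3.04 in B16-M and at 3.54, 3.31 and 3.38 in B16-D, apart by 0.45 (SE 0.12, adjusted p = 0.053, limma). With the slide as a block it passed (0.39, SE 0.09, adjusted p = 0.0401, limma). The remaining 6 subunits lay between -0.06 and 0.30. None of the 6 nucleation promoters and formins, the 4 tropomyosins and the 3 adhesion plaque genes passed the threshold.

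Wasf1 (WAVE1), which hands Rac signals to the Arp2/3 complex, was at 2.63, 2.32 and 2.59 in B16-M and at 2.17, 2.30 and 2.36 in B16-D. The lines overlapped, and the difference was -0.24 (SE 0.10, adjusted p = 0.244, limma). Was, its relative in blood cells, differed by -0.33 (SE 0.22, adjusted p = 0.5, limma). Tpm1, a tropomyosin of stress fibres, was between 3.04 and 3.44 in B16-M and at 3.89, 3.74 and 3.46 in B16-D, apart by 0.50 (SE 0.17, adjusted p = 0.134, limma), while its other 2 probes gave 0.15 and -0.11. With the slide as a block Tpm1 passed (0.40, SE 0.08, adjusted p = 0.0191, limma). Tpm4 was at 4.23, 4.07 and 4.13 in B16-M and at 4.94, 4.27 and 4.30 in B16-D. Its replicate 0 was far above the other B16-D arrays, and the difference of 0.36 (SE 0.20) had an adjusted p of 0.408 (limma). On undated arrays, where replicate 0 alone stands for B16-D, it was 0.80 (adjusted p = 0.0484, limma). Of the adhesion plaque genes, Zyx (zyxin) differed by 0.42 (SE 0.20, adjusted p = 0.337), Tln1 (talin) by 0.05 (SE 0.10, adjusted p = 0.826) and Vcl (vinculin) by -0.08 (SE 0.22, adjusted p = 0.876, limma).

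Coro1a, which binds filaments and the Arp2/3 complex in leukocytes, was at -2.18, -2.04 and -1.99 in B16-M and at -5.14, -3.89 and -3.65 in B16-D. The B16-D arrays were all lower, and replicate 0 was not well above the background. The difference was -2.16 (SE 0.31, adjusted p = 0.00163, limma). With replicate 2 of B16-D, at -1.73 and so above the parental arrays, it was -1.53 with an adjusted p of 0.170 (limma). Coro1b and Coro1c, the coronins of most other cells, differed by 0.34 (SE 0.19) and 0.44 (SE 0.18), with adjusted p-values of 0.408 and 0.225 (limma). Ezr, the membrane linker ezrin, was at 2.41, 1.93 and 2.25 in B16-M and at 3.43, 2.65 and 2.67 in B16-D. It was apart by 0.72 (SE 0.20, adjusted p = 0.0656, limma), and its relatives Msn and Rdx differed by -0.15 (SE 0.14) and 0.05 (SE 0.16). Vim, the intermediate filament protein of mesenchymal cells, was at 6.23, 6.30 and 6.37 in B16-M and at 6.71, 6.56 and 6.61 in B16-D. These arrays were apart, and the difference of 0.33 (SE 0.10) had an adjusted p of 0.112 (limma).

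**Figure D2:**
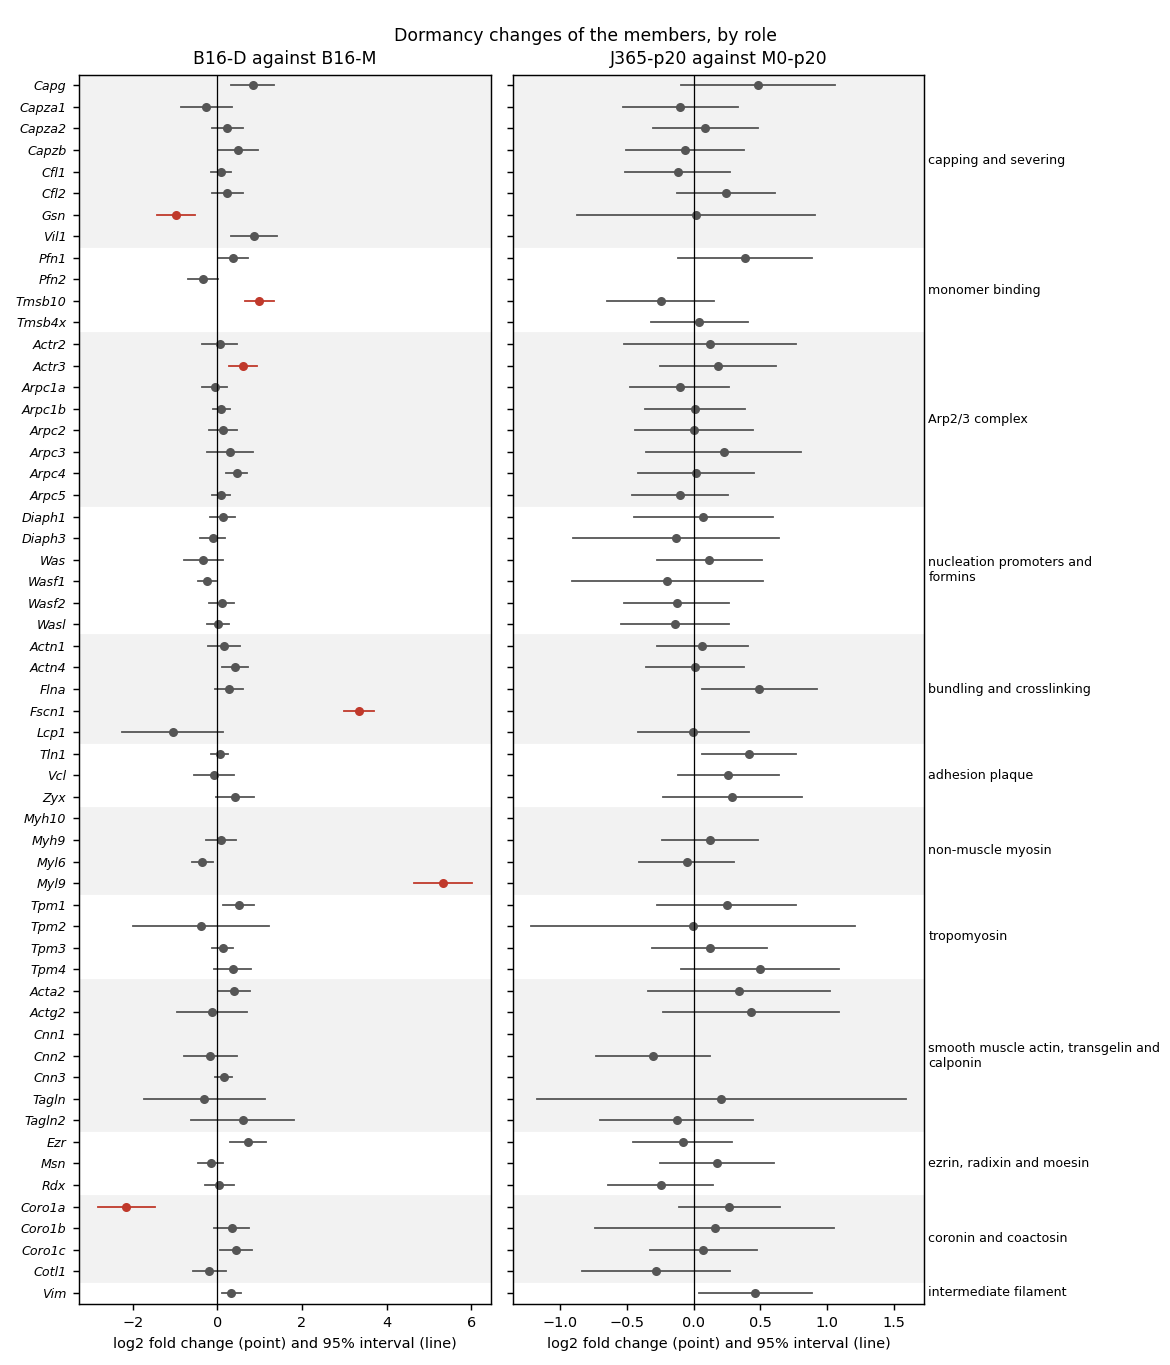
Log2 fold change (x axis) of each member (rows, grouped by role, shaded in turn, empty where not tested) in B16-D against B16-M (left) and J365-p20 against M0-p20 (right, on a narrower scale). Points are estimates, lines 95% intervals, and red marks an adjusted p under 0.05 (limma), which 6 members reached on the left and 0 on the right.

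The genes best known from smooth muscle gave no call in 6 tested. On slide 1, which held 6 of the 16 melanoma arrays, 4 members of 54 (Actg2, Tagln, Tpm2 and Capza1) were lower than on all 10 other arrays and 1 (Wasf2) higher, a smaller share than the 13.9% of all genes that were lower (1.91% were higher). Tagln (transgelin) ran from -3.01 to -2.24 on slide 1 and from -1.78 to -0.10 elsewhere, and Tpm2 from -4.76 to -3.83 against -3.21 to -2.33. Both leukemia arrays of that slide were also lowest in Tagln, Tpm2, Capza1 and Msn, as they were in 16.5% of all genes. They were highest in 9 of 50 members, among them Capg and Wasf2, and in 10.1% of all genes. Slide 1 held 1 of 3 B16-M arrays and 2 of the 3 B16-D arrays used. With the slide as a block, the difference between B16-D and B16-M turned from -0.32 (SE 0.66) to 0.24 (SE 0.31) for Tagln and from -0.39 (SE 0.74) to 0.23 (SE 0.23) for Tpm2, with adjusted p-values of 0.713 and 0.621 (limma). The called members kept their direction within both slides that held both lines. Myl9 differed by 5.07 on slide 1 and 5.74 on slide 3, Fscn1 by 3.55 and 3.21, Tmsb10 by 0.68 and 1.15, Gsn by -0.97 and -1.03, Coro1a by -2.53 and -1.47 and Actr3 by 0.57 and 0.40. The 3 probes of Acta2, the smooth muscle actin, gave differences of 0.39, 0.13 and -0.58, so no direction was read from it.

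Myl9, Fscn1 and Tmsb10 were also higher than in B16-M in the 3 lines derived from B16-D. These comparisons share the 3 B16-M arrays with the one above and are therefore given side by side. Myl9 was between 0.28 and 1.74 in B16-D-733, between 0.11 and 0.47 in B16-D-735 and between 0.93 and 1.36 in B16-D-739, which made it at least 51.4-fold, 34.5-fold and 67.9-fold higher than in B16-M. Fscn1 was higher by 3.49 (SE 0.16), 3.86 (SE 0.17) and 3.51 (SE 0.17), and Tmsb10 by 1.12 (SE 0.15), 0.95 (SE 0.16) and 1.03 (SE 0.16), with adjusted p-values of at most 0.0029 (limma). No array of these lines overlapped B16-M in any of the 3 genes. Coro1a was lower, with differences of -1.70 (SE 0.29) in B16-D-733 and -1.68 (SE 0.31) in B16-D-739, and both calls were lost (adjusted p = 0.106 and 0.190, limma) when replicate 2 of B16-D entered the fit. In B16-D-735 it differed by -0.62 (SE 0.31, adjusted p = 0.354, limma). In fits of only the 2 lines compared Tmsb10 did not pass in B16-D-735 (adjusted p = 0.0802) or B16-D-739 (adjusted p = 0.0605, limma).

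Vil1 passed the test in all 3 derived lines. It was at -3.97, -3.89 and -3.98 in B16-M and between -3.45 and -2.56 in B16-D-733, between -2.81 and -2.09 in B16-D-735 and between -2.13 and -1.90 in B16-D-739. The rise was 0.94 (SE 0.23, adjusted p = 0.0344), 1.51 (SE 0.25, adjusted p = 0.00285) and 1.93 (SE 0.25, adjusted p = 0.000469, limma). The levels of all melanoma lines were low but above the background on every array. The call in B16-D-733 was lost without any 1 of 6 of its 7 arrays, with adjusted p-values from 0.0727 to 0.111 (limma), and with normexp (0.47, adjusted p = 0.126, limma). Lcp1, named after its values were seen, was between -3.16 and -2.22 in B16-D-733 and between -3.62 and -2.66 in B16-D-735, below every B16-M array, with a fall of 2.45 on the log2 scale (adjusted p = 0.0129) and of 2.84 (adjusted p = 0.0082, limma). In B16-D-739 its difference was -1.69 (SE 0.55, adjusted p = 0.139, limma).

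In all, 7 members were higher and 4 lower in B16-D-733 (5.59% of all genes were called), 8 higher and 1 lower in B16-D-735 (5.06%) and 4 higher and 1 lower in B16-D-739 (3.71%). The 11 calls of B16-D-733 fell to between 5 and 7 when any single array was left out. Actr3 (0.53, SE 0.14, adjusted p = 0.0442) was lost without any 1 of the 7 arrays and Pfn2 (0.64, SE 0.15, adjusted p = 0.0283, limma) without any but replicate 2 of B16-M. Gsn, at -0.93 (SE 0.19, adjusted p = 0.0122, limma), was lost without replicate 1 or 2 of B16-M and on undated arrays (-0.60, adjusted p = 0.318, limma). Arrays of B16-D-733 and B16-D-739 resembled the B16-M array of equal replicate number. In B16-D-739 equal numbers also shared a slide with B16-M, as did replicate 2 of B16-D-733, so number and slide cannot be told apart there. With the replicate block the call of Myl6 in B16-D-733, at -0.44 (SE 0.11, adjusted p = 0.0328), was lost (-0.43, adjusted p = 0.0677, limma). The same block gained calls for Ezr (0.66, adjusted p = 0.0294) and Tpm4 (0.52, adjusted p = 0.0385) in B16-D-733 and for Ezr (0.68, adjusted p = 0.0359) and Lcp1 (-1.69, adjusted p = 0.00638, limma) in B16-D-739. Among 8 brain cell markers Mbp was higher in B16-D-733 by 2.14 (SE 0.37) and Tmem119 lower, at -1.44 (SE 0.27), their summed signal ran from 11.9 to 12.3 against 5.84 to 11.2 in B16-M, P2ry12 and Rbfox3 were at the background in both lines, and their part in the changes was not tested. Tmem119 was lower in B16-D too, at -1.46 (SE 0.29). Vim was higher by 0.37 (SE 0.10, adjusted p = 0.0409) in B16-D-733 and 0.51 (SE 0.10, adjusted p = 0.0106, limma) in B16-D-735. Leaving out any single array other than replicate 3 of B16-D-733 ended the first of these calls, with adjusted p-values from 0.0671 to 0.126 (limma). Capg was higher by 1.06 (SE 0.24, adjusted p = 0.019, limma) in B16-D-735, and this call was lost without replicate 0 or 1 of B16-M or replicate 1 of B16-D-735 (adjusted p = 0.0549, 0.0893 and 0.0817, limma). In B16-D-733 and B16-D-739 Capg was apart from B16-M too, with differences of 0.62 (SE 0.22, adjusted p = 0.145) and 0.78 (SE 0.24, adjusted p = 0.103, limma).

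Against B16-D itself, B16-D-735 had 4 members higher and 4 lower (14.8% of 54, against 8.04% of all genes tested) and B16-D-733 had 1 higher (0.477% of all genes). B16-D-739 had 0 by limma (0.317% of all genes), with 5 members at an unadjusted p under 0.05 against 5.10% of all genes. Pfn2 was at 0.73, 0.21 and 0.13 in B16-D and at 1.89, 1.96 and 2.09 in B16-D-735, a rise of 1.62 (SE 0.16, adjusted p = 4.28e-05, limma). It also rose by 0.97 (SE 0.15, adjusted p = 0.0099, limma) in B16-D-733, where its 4 arrays lay between 1.24 and 1.47, a call lost without replicate 1 or 3 of B16-D (adjusted p = 0.0678 and 0.0628, limma). In fits of only the 2 lines compared Pfn2 was the 1 call left in B16-D-735, and in B16-D-733 it did not pass (adjusted p = 0.208, limma).

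The 4 members that fell in B16-D-735 against B16-D were 2 tropomyosins, an actinin and a filamin. Tpm1 was at 3.89, 3.74 and 3.46 in B16-D and at 2.52, 2.51 and 2.92 in B16-D-735, with no overlap and a difference of -1.04 (SE 0.17, adjusted p = 0.00174, limma). Actn1 was at 3.97, 3.61 and 3.67 in B16-D and at 2.77, 3.03 and 3.33 in B16-D-735, and fell by 0.70 (SE 0.17, adjusted p = 0.026, limma). The arrays were apart. Likewise 2 members named after their values were seen fell, Flna by 0.61 (SE 0.16, adjusted p = 0.0319) and the tropomyosin Tpm3 by 0.42 (SE 0.11, adjusted p = 0.0395, limma). Without any 1 of 4 arrays (replicates 0 and 3 of B16-D, 0 and 2 of B16-D-735) the call of Actn1 was lost, with adjusted p-values from 0.0511 to 0.101 (limma).

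Besides Pfn2, Coro1a was higher in B16-D-735, at -2.55, -2.69 and -2.84 (1.53, SE 0.31, adjusted p = 0.00899, limma). Was, the WASP of blood cells, was at -4.03, -3.20 and -2.96 in B16-D and at -2.45, -2.64 and -2.37 in B16-D-735, apart by 0.91 (SE 0.22, adjusted p = 0.0219, limma). With replicate 2 of B16-D both calls were lost (0.91, adjusted p = 0.416, and 0.64, adjusted p = 0.218, limma), and that of Was also without replicate 0 or 1 of B16-D-735. Myl6, the fourth, was higher by 0.41 (SE 0.12, adjusted p = 0.0494, limma), a call lost without any 1 of 5 of the 6 arrays. The fibroblast markers did not move together. Of 8, 5 were tested and 1, Dcn, was called higher (limma), where 8.04% of all genes were called. Dcn was above the background on 3 of 3 B16-D-735 arrays and 0 of 3 B16-D arrays. It was at the background in the other melanoma lines too, so it entered the test only through B16-D-735. From B16-D to B16-D-735 the mean levels of Col1a1 and Col1a2 rose, from -5.69 to -3.92 and from -1.06 to -0.15. Those of Postn and Pdgfra fell, from -3.72 to -4.68 and from -4.78 to -6.12. Col3a1, Pdgfra, Lum and Thy1 were at the background on every B16-D-735 array. The summed signal of the fibroblast markers, relative to the 75th percentile, was 1.15 to 1.56 in B16-D-735 and 0.593 to 0.760 in B16-D. Their part in the changes was not tested.

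In the leukemia model no member passed the test. In simulated data with the spread of this fit, 14% of log2 changes of 1 and 54% of those of 2 were called. For B16-D against B16-M these shares were 50% and 70%. A count of 0 calls therefore does not show that the members were unchanged. Of 50 members tested in J365-p20 against M0-p20, 0 were called by limma, where 1.08% of all 23036 genes were, and 3 had an unadjusted p under 0.05, against 6.93% of all genes. These 3 were Flna at 0.49 (SE 0.18, adjusted p = 0.603), Tln1 at 0.42 (SE 0.15, adjusted p = 0.562) and Vim at 0.46 (SE 0.18, adjusted p = 0.646, limma). The other probe of Flna gave -0.13. Tln1, the talin that couples integrins to actin, was at 6.19, 6.25, 6.20 and 6.18 in M0-p20 and at 6.55, 6.50 and 6.80 in J365-p20. Those arrays did not overlap, and its other probe gave 0.09. In 6 members every J365-p20 array was above every M0-p20 array and in 0 below, against 5.03% and 3.33% of all genes. The median change of the 50 members was 0.07, against -0.02 over all genes.

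Capg was the capping gene nearest to a change in this model. It was at 4.10, 5.10, 4.79 and 4.51 in M0-p20 and at 5.05, 5.07 and 5.20 in J365-p20. Replicate 1 of M0-p20 lay within the J365-p20 range, and the difference of 0.48 (SE 0.25, 95% interval -0.09 to 1.06) had an adjusted p of 0.855 (limma). Within slides it was 0.10, 0.74 and 0.28. In the leukemia lines Capg ran from 5.10 to 5.20 on slide 1 and from 4.10 to 5.07 elsewhere. Tpm4 was at 2.63, 3.60, 3.54 and 3.26 in M0-p20 and at 3.73, 3.84 and 3.70 in J365-p20, apart by 0.50 (95% interval -0.09 to 1.09). Wasf1 differed by -0.20 (95% interval -0.91 to 0.52), a value that turned to 0.14 without replicate 3 of J365-p20, and Gsn by 0.02 (95% interval -0.87 to 0.91). Replicate 0 of M0-p20 was the lowest parental array in Capg, Tpm4 and Gsn, and without it the differences were 0.31, 0.29 and -0.34, none of them past the threshold (adjusted p at least 0.690, limma). Tmsb10 was at 4.15, 4.51, 4.29 and 4.04 in M0-p20 and at 3.88, 4.08 and 4.04 in J365-p20, and Coro1a at 5.09, 5.40, 5.38 and 5.12 against 5.48, 5.63 and 5.44. The lines overlapped in the former and were apart, by 0.27 (SE 0.16), in the latter, which did not pass (adjusted p = 0.921, limma).

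A cytoskeletal change shared by both models was sought in 3 ways. No member of 49 passed the threshold in both dormancy comparisons in the same direction, while 7 of 20883 genes did (0.0335%). As 0 members were called in leukemia, this count could only be 0 and cannot decide the question. At an unadjusted p under 0.05 in each (limma), Vim was the only such member, and 215 genes were (1.03%). The sign of the change was the same in 33 of the 49 members, or 67.3%, and in 62.5% of all genes. Both signs were positive for 24 members, among them Capg, Vim, Tpm4, Flna, Zyx and Actr3, and negative for 9, among them Wasf1, Myl6 and Lcp1. These signs are those of the brightest probe. The other probe of Flna gave -0.15 in melanoma and -0.13 in leukemia. In leukemia another probe of Actr3 gave -0.09, and the other probe of Myl6 gave 0.02. Another probe of Actr2, Capza2, Diaph1, Myh9, Tpm3 and Acta2 was negative in both models (-0.36 and -0.32 for Capza2). With another probe of Actn1, Arpc1a, Coro1c, Tpm1 or Tpm2 the sign turned in melanoma or in leukemia. The count of 33 therefore depends on the probe chosen.

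The mean of both dormancy changes, which asks for a common shift without requiring a call in each model, gave 2 members higher and 1 lower of 49, or 6.12% (2.97% of all 20817 genes). Vim was higher by 0.39 (SE 0.09, adjusted p = 0.0164, limma). Its levels were 4.21, 4.71, 4.64 and 4.46 in M0-p20 and 5.07, 5.02 and 4.81 in J365-p20, apart as in melanoma, and without replicate 0 of J365-p20 the adjusted p was 0.0513 (limma). Capg was higher by 0.66 (SE 0.17, adjusted p = 0.04, limma). Leaving out any of 9 of the 13 arrays ended this call, with adjusted p-values from 0.0519 to 0.128 (limma), and with replicate 2 of B16-D the change was 0.57 (adjusted p = 0.113, limma). Coro1a was lower, with a mean change of -0.94 (SE 0.19, adjusted p = 0.00783, limma), although its leukemia difference was positive, and with replicate 2 of B16-D the mean was -0.63 (adjusted p = 0.440, limma). With normexp it was -0.29 (adjusted p = 0.0819, limma). In a fit of the 4 lines compared alone none of the 3 passed, with adjusted p-values of 0.149 for Vim, 0.215 for Capg and 0.0759 for Coro1a (limma).

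The difference between the models was tested as well, and it was past the threshold for 2 members (1.36% of all genes). The dormancy change of Coro1a was lower in melanoma than in leukemia, with a difference of -2.42 (SE 0.37, adjusted p = 0.000828, limma), and that of Tmsb10 was higher by 1.24 (SE 0.22, adjusted p = 0.00296, limma), a call lost in a fit of the 4 lines compared alone (adjusted p = 0.0507, limma). With replicate 2 of B16-D the difference for Coro1a was -1.80 (adjusted p = 0.281, limma). For Capg it was 0.36, with a 95% interval of -0.35 to 1.07, and for Vim -0.14, with an interval of -0.50 to 0.23. Myl9 and Fscn1 could not enter this test, being above the background on no leukemia array.

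**Figure D3:**
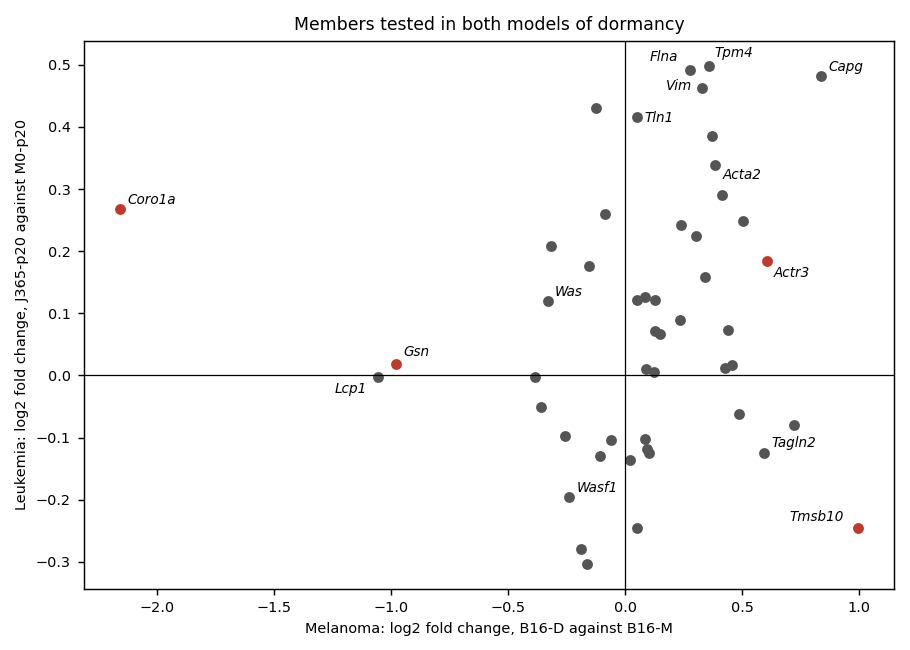
Dormancy changes of the 49 members tested in both models, as log2 fold changes of B16-D against B16-M (x axis) and of J365-p20 against M0-p20 (y axis, a smaller range). Each point is a gene, and red marks an adjusted p under 0.05 in melanoma (limma). Vim, Capg and Tpm4 were positive on both axes, and Coro1a and Tmsb10 lay on opposite sides.

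The parental lines were compared to show where the models started from. Between B16-M and M0-p20, 15 members were higher and 16 lower of 49, or 63.3%, in a comparison in which 51.7% of all genes were called. The lowest log2 differences were -7.32 (SE 0.25) for Coro1a, -6.21 (SE 0.19) for Was and, named after their values were seen, -7.39 (SE 0.46) for Tagln2 and -5.05 (SE 0.44) for Lcp1. Tmsb4x was at least 6900-fold higher in M0-p20, between 7.73 and 7.97 on its 4 arrays, and at the background in B16-M by its single probe. The melanoma line was higher in Wasf1 by 5.33 (SE 0.20), in Wasl (N-WASP) by 2.05 (SE 0.12), in the muscle cofilin Cfl2 by 4.66 (SE 0.14), in Vim by 1.79 (SE 0.12), in Tpm1 by 1.81 (SE 0.18) and in Flna by 1.54 (SE 0.15), all with adjusted p-values under the threshold (limma). Cnn3 was at least 376-fold and Pfn2 at least 41.0-fold higher in B16-M.

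**Figure D4:**
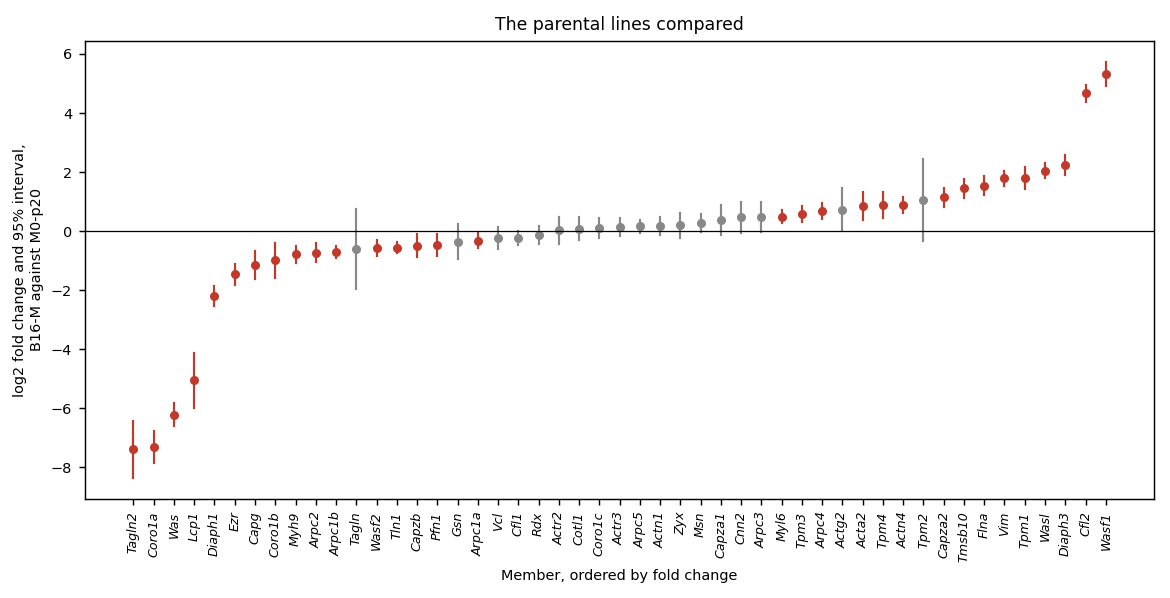
Log2 fold change of B16-M against M0-p20 (y axis) of the 49 members tested, ordered by size (x axis). Points are estimates, lines 95% intervals, and red marks an adjusted p under 0.05 (limma). Coro1a was at -7.32 and Was at -6.21, and Cfl2 at 4.66 and Wasf1 at 5.33.

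Genes that act on this machinery were followed in 2 lists, the SRF and MRTF axis and the partners of the WAVE complex. In B16-D against B16-M, 0 of 19 genes of the former and 0 of 8 of the latter passed the test (limma), where 3.64% of all genes did, among them Srf at 0.31 (SE 0.20) and Ccn2, a target of SRF and of YAP, at -0.20 (SE 0.20). In B16-D-735 against B16-D, where 8.04% of all genes were called, 3 of 19 genes of that axis were lower, Srf at -0.70 (SE 0.20), Ccn1 at -1.33 (SE 0.38) and Pdlim7 at -0.95 (SE 0.24), and the integrin Itga5, of the same list, was higher by 0.91 (SE 0.22). Cyfip2, a WAVE complex subunit, was higher in B16-D-735 than in B16-D by 0.66 (SE 0.12). It was also called higher than in B16-M in B16-D-733, B16-D-735 and B16-D-739 (limma), where 5.59%, 5.06% and 3.71% of all genes were called. In J365-p20 against M0-p20, 0 of 18 and 0 of 7 tested genes of these lists passed (limma), and in the mean of both models Csrp1, a LIM protein of the SRF axis, was higher by 0.31 (SE 0.08).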

How the data were processed

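RNA of the 7 lines was measured on 24 arrays, 8 on each of 3 slides. The authors extracted spot signals with Agilent Feature Extraction 10.7.3.1, and the deposited processed signal is an intensity after background subtraction, not scaled between arrays, per the file headers. The deposited series table holds the same intensities. Control spots and 2468 outlier spots were dropped. Saturation affected 0 spots, and replicate spots were averaged on the log2 scale after centring. Genes needed a probe above the background on 3 or more arrays (of each model, in the joint fit). Tests were two-sided, by limma 3.58.1 (R 4.3.3), on 16 melanoma, 7 leukemia or 23 joint arrays, with p-values adjusted over all genes of the fit. The number of arrays limits the precision. Bounds use the dimmest probe above the background on each array.

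Members and gene lists were chosen with earlier results of these data known, and 1 gene list is not reported here. Values on each array are given for members past the threshold in B16-D, J365-p20 or the mean of both, for Capg, Wasf1 and Tpm4, for up to 5 by size in each derived line against B16-D, and then by smallest p to 20 genes. Residuals of arrays with equal replicate numbers correlated with those of B16-M at 0.583, 0.353 and 0.824 in B16-D-733 and 0.745, 0.579 and 0.83 in B16-D-739. This was taken as a pairing, and the correlation was less regular elsewhere. Arrays of equal number shared a slide throughout B16-D-739 and in replicate 2 of B16-D-733, so there the pairing cannot be told apart from the slide. The script was tested on simulated data. Alternatives covered background correction (normexp on the median signal), normalization, probes, filters, blocks and single arrays. Promoters were read in Python 3.11.15 and plots drawn with matplotlib 3.10.9.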

Additional observations from a re-analysis of the deposited data

Results flagged for a closer look

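In B16-D, Gsn was at 3.36 on replicate 0 while the other 3 arrays, replicate 2 included, lay between 2.51 and 2.61, and the array stood apart from its group. It is the only B16-D array without a date in its title, and all B16-M arrays are undated. Tpm4 did the same on that array, at 4.94 against 4.17 to 4.30. In B16-D-733, Arpc4 was at 3.44 on replicate 2 and at 3.19 to 3.23 on the other 3. These are 3 of 60 sets of 4 arrays looked at, and chance gives about 1 in 20. The dormancy changes of Coro1a (melanoma minus leukemia -2.42, SE 0.37, adjusted p = 0.000828, limma) and of Tmsb10 (1.24, SE 0.22, adjusted p = 0.00296, limma) differed between the models by the test of the difference itself.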

How the results depend on the processing

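Of 141 recomputed counts that leave out no array, 117 stayed within 1.5 times the reported one. Fits of only the lines compared gave 2 calls in B16-D against B16-M (6 as reported), 7 in B16-D-733 against B16-M (11), 0 in B16-D-733 against B16-D (1), 1 in B16-D-735 against B16-D (8), 0 for the mean change (3) and 1 for the difference between models (2). With B16-D replicate 2 these were, for B16-D-733 against B16-M, 6, for B16-D-735 against B16-D 5, for the mean change 1 and for the difference 1. Without a filter on dim probes they were 6 for B16-D-733 against B16-M, 4 for B16-D-735 against B16-D and 4 for the difference, and with probes above the background on every array 3 for B16-D-739 against B16-M (5) and 1 for the difference. Normexp gave 7 for B16-D-733 against B16-M. Arrays without a date in the title gave 6 for B16-D-733 against B16-M, 0 for B16-D-733 against B16-D, 1 for B16-D-739 against B16-D (0) and 6 for the mean change. A slide block gave 15 for B16-D-735 against B16-M (9) and 7 for the mean change, a replicate block 6 for the mean change and an intensity trend 7. The replicate block gave 9 calls in B16-D against B16-M, where numbers did not pair the arrays. The cause of these moves was not tested.

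Leaving out 1 array gave 4 to 7 calls in B16-D against B16-M, 5 to 7, 7 to 8 and 5 to 5 for B16-D-733, B16-D-735 and B16-D-739 against B16-M, 0 to 1, 3 to 9 and 0 to 1 for these lines against B16-D, 1 to 6 for the mean change, 2 to 2 for the difference, 28 to 32 between the parental lines and 0 to 0 in leukemia and in both models. Of 1138 recomputed changes of named genes, 990 kept direction and side of the threshold, 143 were no longer past it, 4 newly passed and 1 turned, Wasf1 in J365-p20 against M0-p20, from -0.20 to 0.14 without replicate 3 of J365-p20 (-0.52 to 0.14 over single arrays left out). Alternatives on B16-D replicate 2, dated titles and lines compared do not apply to leukemia and were not run there.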
